A study of Mus musculus with 8 samples.

Results

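The genes described here are the 10 that encode the light response of cone photoreceptors: the opsins Opn1sw and Opn1mw, the arrestin Arr3, the transducin subunits Gnat2, Gnb3 and Gngt2, the phosphodiesterase subunits Pde6c and Pde6h, and the channel subunits Cnga3 and Cngb3. They were chosen by name, and all 10 were found, each as 1 row, among the 56465 features of the deposited table. RNA was sequenced from 8 mouse retinas on day 4 after detachment by an injection of 10 µl sodium hyaluronate under the retina, 4 from wild-type mice (WT; replicates 3, 4, 5 and 7) and 4 from mice expressing human transferrin (TG; replicates 2, 5, 6 and 8). Every mouse carries the strain label C57Bl/6J, and every retina was detached, so no group shows the attached retina. WT held 3 males and 1 female and 3 right and 1 left eyes, and TG held 2 of each sex and 2 of each side. The sources used here do not give the promoter of the transgene or the age of the mice. Nor do they say that each retina came from its own mouse, and p-values then reflect only sample-to-sample spread, which may be technical. The series title states the question as whether transferrin protects the detached retina. Libraries held 61535690 to 75866423 reads, of which mitochondrial transcripts took 21.9% to 27.5% in WT and 20.4% to 22.3% in TG.

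Cones are the photoreceptors of daylight and colour vision, and in the mouse they are far outnumbered by rods. A cone opsin that absorbs a photon activates cone transducin, whose alpha subunit switches on a phosphodiesterase. That enzyme breaks down cyclic GMP, cyclic nucleotide-gated channels in the outer segment close, and arrestin later shuts off the opsin. Most mouse cones hold both opsins in proportions that change across the retina, with the short-wavelength opsin Opn1sw dominant ventrally and the middle-wavelength opsin Opn1mw dorsally. In a detached retina the outer segments are separated from the pigment epithelium, which is known to harm rods and cones. In bulk RNA, fewer cells of a type and less RNA per cell cannot be told apart.

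Values are reads normalized by the authors for library size, written below as normalized reads. None of the 10 genes passed the test of TG against WT (limma, adjusted p from 0.918 to 0.987, threshold 0.05), where 0.0101% of the 19798 features tested passed. Tests on recovered read counts gave 0 members as well, both with edgeR (lowest adjusted p = 0.969, 0.0101% of features called) and with DESeq2 (lowest adjusted p = 0.918, 0.081% called). At an unadjusted p under 0.05 there were 2 members of 10 with limma, Opn1mw and Pde6h, beside 4.64% of all features. Of the 10 genes, 6 lay lower and 4 higher in TG, where 52.2% of all features lay lower. Their median log2 fold change was -0.23, against -0.02 over all features tested. WT and TG libraries overlapped for every member, where 2.53% of all features did not overlap.

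**Figure D1:**
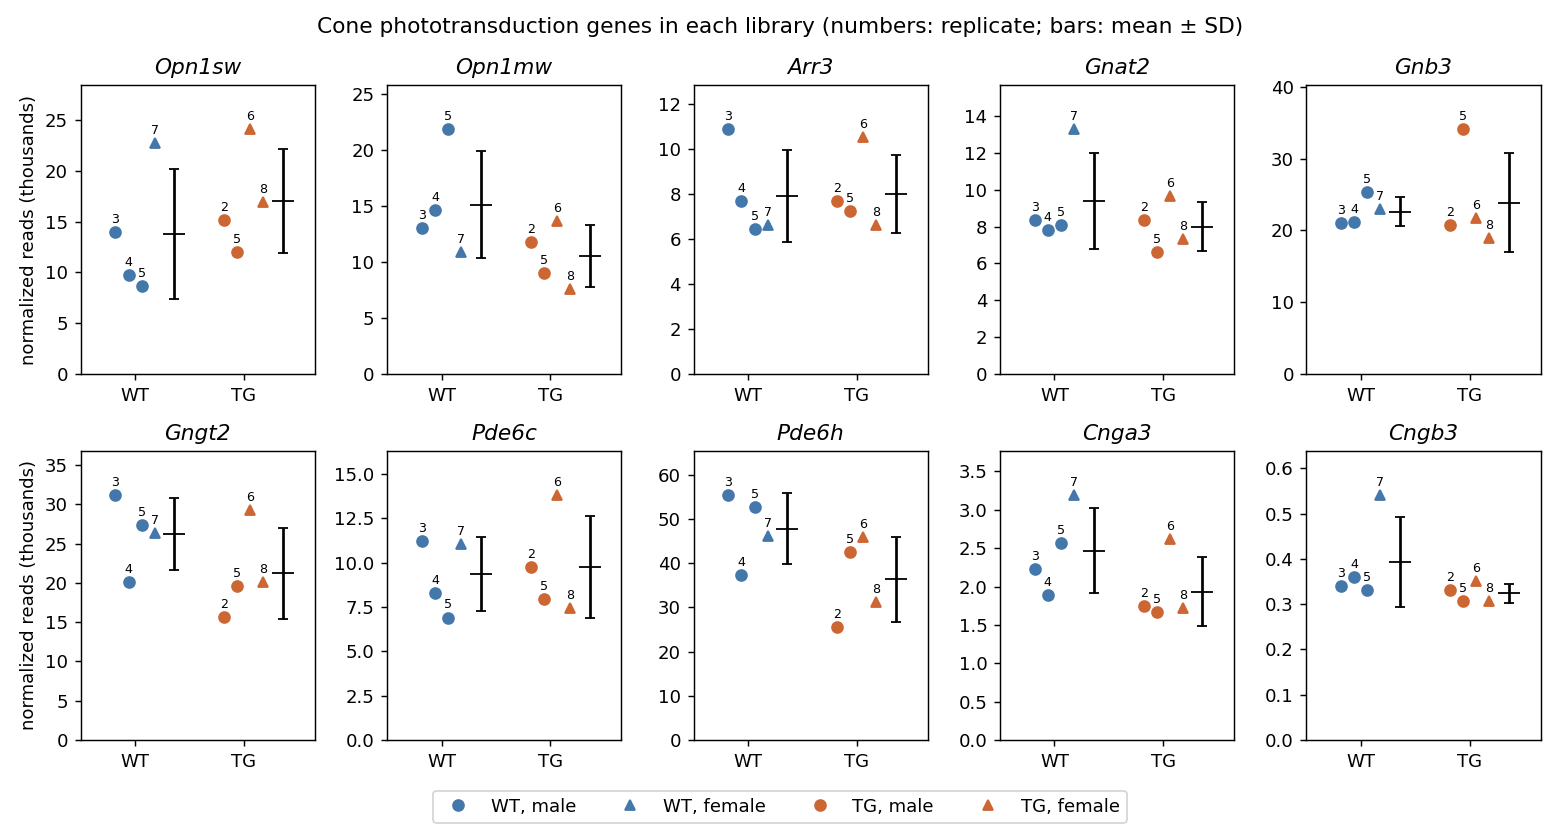
Normalized reads (divided by 1000, vertical axes from 0) of each cone phototransduction gene in the 4 WT (blue) and 4 TG (orange) libraries, with the replicate number beside each point, circles for males, triangles for females and black bars for the mean ± SD. The groups overlap in all 10 panels.

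The opsins are shown first with the 250 bases before their annotated starts, because the results below turn on their balance. Promoter sequence for 6 of the 10 members was matched by symbol in RefSeq (GRCm38.p6). Capitals mark TAATCC or TAATCT on either strand, 6-base forms of the sequence that Crx and Otx2, the homeodomain factors of photoreceptors, are known to bind. The Opn1sw window lies on the minus strand at chr6:29380514-29380763 and the Opn1mw window on the plus strand at chrX:74127216-74127465. Beside them stand the windows of the arrestin gene Arr3 (plus strand, chrX:100605247-100605496) and of Gnat2 (plus strand, chr3:108092816-108093065), the other members with a match.
Opn1sw: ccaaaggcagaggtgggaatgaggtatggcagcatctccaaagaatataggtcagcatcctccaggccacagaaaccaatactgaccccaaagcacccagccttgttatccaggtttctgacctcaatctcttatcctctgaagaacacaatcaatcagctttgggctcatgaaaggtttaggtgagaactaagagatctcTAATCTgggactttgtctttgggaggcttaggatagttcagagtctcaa
Opn1mw: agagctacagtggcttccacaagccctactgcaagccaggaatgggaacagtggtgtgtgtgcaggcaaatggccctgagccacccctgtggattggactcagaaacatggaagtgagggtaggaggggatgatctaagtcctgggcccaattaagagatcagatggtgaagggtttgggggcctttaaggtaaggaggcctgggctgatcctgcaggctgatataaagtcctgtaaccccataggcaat
Arr3: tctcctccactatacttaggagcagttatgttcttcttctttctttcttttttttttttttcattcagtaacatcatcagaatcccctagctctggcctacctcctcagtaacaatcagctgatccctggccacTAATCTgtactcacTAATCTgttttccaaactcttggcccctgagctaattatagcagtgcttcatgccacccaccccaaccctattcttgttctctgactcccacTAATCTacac
Gnat2: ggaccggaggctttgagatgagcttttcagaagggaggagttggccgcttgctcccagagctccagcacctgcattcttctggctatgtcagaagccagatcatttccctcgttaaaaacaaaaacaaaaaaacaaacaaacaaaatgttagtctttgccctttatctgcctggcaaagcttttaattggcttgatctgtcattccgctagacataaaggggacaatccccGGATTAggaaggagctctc
Opn1sw held 1 match, whose far end lay 49 bases before the start, and Opn1mw held none in this window. Arr3 held 3 matches, at 116, 102 and 10 bases before the start, and Gnat2 held 1 at 19 bases. The windows of Pde6h and Cnga3 held none. Among all 32851 windows of this length, 12.8% held at least 1 match and 0.189% held 3 or more. A match is a description of the letters and not evidence of binding.

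Opn1mw, the middle-wavelength opsin gene on the X chromosome (74127464 to 74150756, mm10), had 13071, 14635, 21903 and 10911 normalized reads in WT 3, 4, 5 and 7. In TG 2, 5, 6 and 8 it had 11835, 9077, 13725 and 7573. WT 5 stood highest and TG 8 lowest, and all 4 TG libraries lay under the WT median of 13853. The WT mean was 15130 ± 4766 and the TG mean 10553 ± 2755 (SD, n = 4 each). This gave a log2 fold change of -0.51 ± 0.22 (SE) with a 95% interval from -0.98 to -0.04 before adjustment, and it did not pass (adjusted p = 0.918, limma). It was -0.31 without WT 5, -0.70 without WT 3 and TG 6, and stayed negative under all 21 alternatives. Among these, a changed minimum mean or no variance trend leaves a fold change as it was.

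Opn1sw, the short-wavelength opsin gene on chromosome 6 (29376671 to 29380513), went the other way between the group means. It had 13954, 9763, 8626 and 22724 normalized reads in WT 3, 4, 5 and 7, and 15208, 11978, 24111 and 16922 in TG 2, 5, 6 and 8. WT 7 and TG 6 stood highest and WT 5 lowest, so the WT libraries spanned nearly the whole range. Its log2 fold change of 0.37 ± 0.27 (SE; 95% interval -0.22 to 0.96) did not pass (adjusted p = 0.918, limma). The value was 0.65 without WT 7 and 0.18 without WT 5.

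The 2 opsins together held 24398 to 33635 normalized reads in WT (28897 ± 4036, SD, n = 4) and 21055 to 37837 in TG (27607 ± 7247). Opn1sw made up 51.6%, 40.0%, 28.3% and 67.6% of that sum in WT 3, 4, 5 and 7. In TG 2, 5, 6 and 8 its share was 56.2%, 56.9%, 63.7% and 69.1%. All TG libraries therefore had more Opn1sw than Opn1mw reads, while WT held libraries on both sides. These are reads, and the transcript models differ in length, 2410 bases for Opn1sw and 1227 for Opn1mw. Per kilobase, Opn1mw lay above Opn1sw in TG 2, 5 and 6 (9645, 7398 and 11186 against 6310, 4970 and 10005). It lay below in TG 8 (6172 against 7022). Among WT libraries it lay below only in WT 7 (8892 against 9429). The log2 ratio of Opn1mw to Opn1sw reads was -0.09, 0.58, 1.34 and -1.06 in WT 3, 4, 5 and 7, and -0.36, -0.40, -0.81 and -1.16 in TG 2, 5, 6 and 8. Its mean was 0.19 ± 1.02 in the 4 WT libraries and -0.68 ± 0.38 in the 4 TG libraries (SD). The difference of -0.88 did not pass a two-sided exact permutation test over samples (p = 0.143, adjusted p = 0.214 over the 3 ratios tested, where the smallest p this design allows is 0.029).

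Sex was examined after the opsin values were seen. The 3 female libraries, TG 8, WT 7 and TG 6, had the 3 lowest log2 ratios of Opn1mw to Opn1sw. For Opn1sw itself the females held 16922 to 24111 normalized reads and the 5 males 8626 to 15208, with no overlap, as for 3.2% of all features. No other member was separated by sex. With sex beside genotype, Opn1sw lay 0.81 higher in females on the log2 scale (limma, unadjusted p = 0.0017). It did not pass (adjusted p = 0.9995, limma), where 0.0303% of features passed. In that fit the log2 fold change for TG against WT was 0.17 for Opn1sw and -0.44 for Opn1mw. Gnat2 and Cnga3 each lay 0.41 higher in females there, and Opn1mw (-0.25), Gnb3 (-0.21) and Arr3 (-0.03) lay lower. None of these passed. Left eyes (WT 7, TG 2 and TG 6) lay 0.72 higher than right eyes for Opn1sw, with eye side beside genotype (limma, unadjusted p = 0.0084). That did not pass either (adjusted p = 0.998, limma, 0% of features passed). Gnat2 (0.51, unadjusted p = 0.0026, limma), Pde6c (0.49), Cnga3 (0.42) and Cngb3 (0.37) also lay higher in left eyes. Gnb3 (-0.14) and Pde6h (-0.07) lay lower. In the fit of TG against WT alone, the lowest unadjusted p among the members was 0.037 (Opn1mw, limma). Of the 3 left eyes, 2 are female, so sex and side overlap in this design. Among males alone, WT stood at -0.09, 0.58 and 1.34 and TG at -0.36 and -0.40. The only WT female, at -1.06, lay between the TG females at -0.81 and -1.16. A test of whether the genotype effect differed between the sexes called 0 members (lowest adjusted p = 0.467 for Gnat2, limma), where 0.00505% of features passed.

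**Figure D2:**
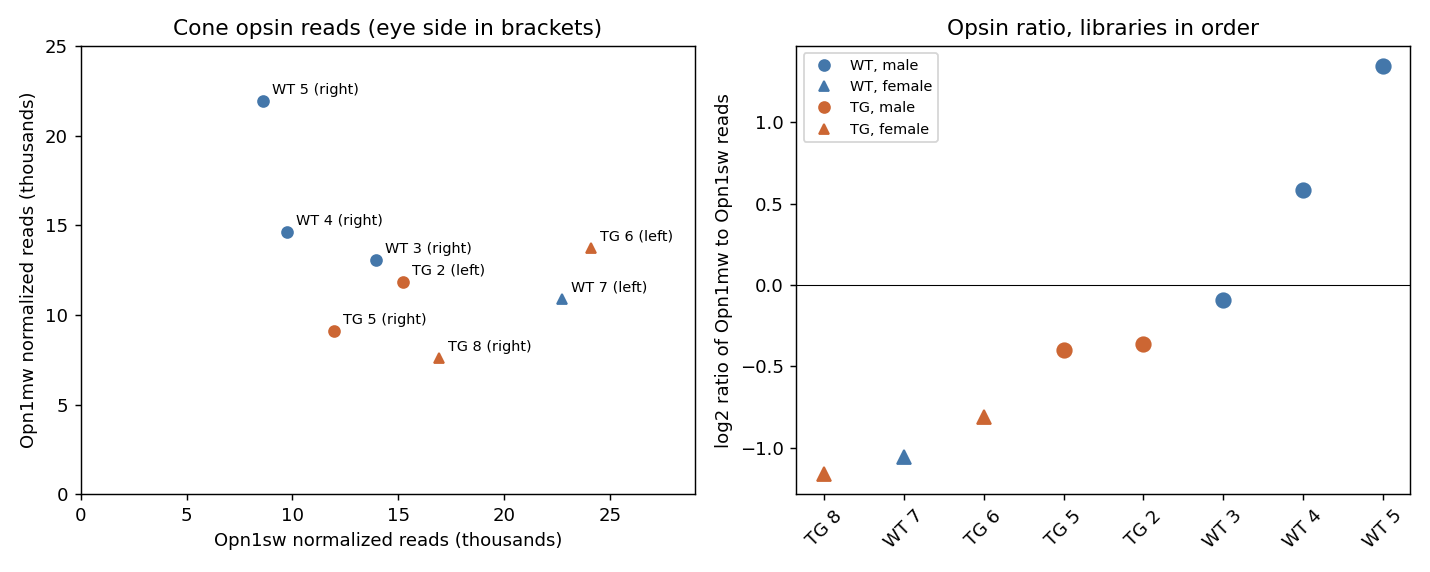
Left, Opn1mw against Opn1sw normalized reads (divided by 1000, linear axes from 0) in each library with its eye side; right, the log2 ratio of Opn1mw to Opn1sw with the libraries in rising order (blue WT, orange TG, circles males, triangles females). The 3 female libraries have the lowest ratios, from -1.16 to -0.81, and WT 5 has the highest, 1.34.

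Transducin carries the signal from the opsin to the phosphodiesterase. Gnat2, the cone alpha subunit gene on chromosome 3 (108093066 to 108101429), had 8352, 7838, 8087 and 13288 normalized reads in WT 3, 4, 5 and 7. It had 8348, 6640, 9655 and 7345 in TG 2, 5, 6 and 8. WT 7 stood far above the other WT libraries, and the TG values lay on both sides of those. On the log2 scale TG differed from WT by -0.21 ± 0.18 (SE; 95% interval -0.60 to 0.18), and -0.03 without WT 7.

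Gnb3, the beta subunit gene on chromosome 6 (124834240 to 124840275), is also known from ON bipolar cells and so does not report cones alone. Its WT values were the closest together of any member, at 21055, 21178, 25351 and 22930 normalized reads (22629 ± 2007, SD, n = 4). In TG 2, 5, 6 and 8 it had 20741, 34112, 21698 and 18944 (23874 ± 6920). TG 5 lay above all other libraries. The log2 fold change of 0.04 ± 0.17 (SE) was -0.14 without TG 5. The summed level of the 11 bipolar genes listed was 55784 in TG 5, against 48218 to 55753 in WT and 53381 to 82436 over TG. The highest sum, 82436, was in TG 8, where Gnb3 was lowest (18944). The part of the bipolar level in the Gnb3 values was not tested.

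Gngt2, the gamma subunit gene on chromosome 11 (95842295 to 95845729), had 31177, 20115, 27334 and 26309 normalized reads in WT 3, 4, 5 and 7, and 15687, 19640, 29319 and 20159 in TG 2, 5, 6 and 8. TG 2, 5 and 8 lay near or under the lowest WT value, and TG 6 lay among the highest. The fold change came to -0.33 ± 0.19 (SE; 95% interval -0.73 to 0.08) on the log2 scale. It was -0.50 without TG 6 and -0.19 without TG 2.

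The cone phosphodiesterase has a catalytic subunit, encoded by Pde6c on chromosome 19 (38132781 to 38183933), and a small inhibitory subunit, encoded by Pde6h on chromosome 6 (136954521 to 136968861). Pde6h had 55396, 37204, 52571 and 46047 normalized reads in WT 3, 4, 5 and 7 and 25500, 42596, 45924 and 31194 in TG 2, 5, 6 and 8. All TG libraries lay under the WT median of 49309, and TG 2 and TG 8 lay under every WT library. The means were 47805 ± 8079 and 36304 ± 9574 (SD, n = 4 each), with a log2 fold change of -0.42 ± 0.19 (SE; 95% interval -0.83 to -0.01 before adjustment), which did not pass (adjusted p = 0.918, limma). It was -0.26 without TG 2 and -0.55 without TG 6. Pde6c did not share that difference in means, with 9364 ± 2107 in WT and 9751 ± 2891 in TG. Its values were 11202, 8309, 6909 and 11038 in WT 3, 4, 5 and 7, and 9784, 7973, 13817 and 7431 in TG 2, 5, 6 and 8. Its log2 fold change of 0.04 ± 0.21 (SE; 95% interval -0.40 to 0.49) changed sign under 6 alternatives. The difference between the 2 subunits was not tested.

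The cone channel is built from the alpha subunit Cnga3 on chromosome 1 (37218278 to 37263383) and the beta subunit Cngb3 on chromosome 4 (19280850 to 19510623), both known as genes mutated in achromatopsia, the loss of cone vision. Cnga3 had 2227, 1886, 2567 and 3193 normalized reads in WT 3, 4, 5 and 7, and 1740, 1670, 2613 and 1717 in TG 2, 5, 6 and 8. TG 2, 5 and 8 lay close together and under all WT libraries, while TG 6 lay above all but WT 7. The log2 fold change was -0.35 ± 0.19 (SE; 95% interval -0.77 to 0.07), -0.50 without TG 6 and -0.22 without WT 7. Cngb3, the lowest of the members in normalized reads, had 340, 360, 331 and 541 in WT 3, 4, 5 and 7 and 332, 307, 351 and 307 in TG 2, 5, 6 and 8. WT 7 stood far above the other 7 libraries, which lay between 307 and 360. The log2 fold change of -0.25 ± 0.22 (SE; 95% interval -0.72 to 0.23) was -0.08 without WT 7.

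Arr3, cone arrestin on the X chromosome (100605497 to 100618493), binds the activated opsin and ends its signal. It had 10894, 7705, 6435 and 6639 normalized reads in WT 3, 4, 5 and 7, and 7675, 7242, 10545 and 6626 in TG 2, 5, 6 and 8. WT 3 and TG 6 stood apart from the other 6 libraries, which lay between 6435 and 7705. Those were also the libraries highest in the summed level of 8 lens genes, 24648 in WT 3 and 20195 in TG 6 against 60.2 to 5223 in the others, and the part of this in the Arr3 values was not tested. The log2 fold change was 0.03 ± 0.19 (SE; 95% interval -0.37 to 0.43) over all libraries and 0.05 without WT 3 and TG 6.

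The members did not move as 1 block across libraries. WT 3 had the highest value of Arr3, Gngt2 and Pde6h, WT 7 of Gnat2, Cnga3 and Cngb3, TG 6 of Opn1sw and Pde6c, WT 5 of Opn1mw and TG 5 of Gnb3. The lowest values were spread over WT 5, TG 2, TG 5 and TG 8. From the lowest to the highest library a member differed 1.69-fold (Arr3) to 2.89-fold (Opn1mw). Within WT the coefficient of variation ran from 8.87% for Gnb3 to 46.5% for Opn1sw, and within TG from 6.49% for Cngb3 to 30.1% for Opn1sw. The standard errors of the log2 fold changes ran from 0.17 to 0.27. Their median was 0.16 among the well-covered features, those averaging 1000 normalized reads or more.

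Levels were compared between genes per kilobase of the principal transcript in GENCODE M21 (GRCm38), whose lengths run from 558 bases for Gngt2 to 5940 bases for Pde6h. In WT, Gngt2 stood highest with 47014 ± 8218 normalized reads per kilobase (SD, n = 4). Opn1mw and Gnb3 followed at 12331 ± 3885 and 12258 ± 1087 per kilobase and did not differ beyond their spread. Below them came Pde6h (8048 ± 1360), Arr3 (5826 ± 1516), Opn1sw (5712 ± 2654), Gnat2 (4572 ± 1269) and Pde6c (3621 ± 815), and each overlapped its neighbour in this order within 1 SD. Cnga3 was far lower at 695 ± 157 and Cngb3 lowest at 83.5 ± 21.1 per kilobase. In TG, Gnb3 stood above Opn1mw (12933 ± 3749 and 8600 ± 2245 per kilobase) and Opn1sw above Pde6h (7077 ± 2129 and 6112 ± 1612), both within their spread. The order depends on the transcript models, above all for the short Gngt2 and the long Pde6h.

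Most cone genes have a rod counterpart with the same task, and rod genes gave many times more reads. For 1 read of Gnat2 there were on average 70.6 reads of Gnat1 in WT and 75.7 in TG. Among the 9 rod genes compared, 5 lay lower and 4 higher in TG, 0 passed, and the median log2 fold change was -0.09. Cngb1, the rod channel beta subunit gene, stood at -0.44 ± 0.15 (SE), against -0.25 for its cone counterpart Cngb3. Gngt1, the rod gamma subunit gene, stood at -0.41 ± 0.25, against -0.33 for Gngt2. Pde6g, the rod inhibitory subunit gene, stood at 0.06 ± 0.19, against -0.42 for Pde6h. Sag, rod arrestin, stood at 0.15 ± 0.18, against 0.03 for Arr3.

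**Figure D3:**
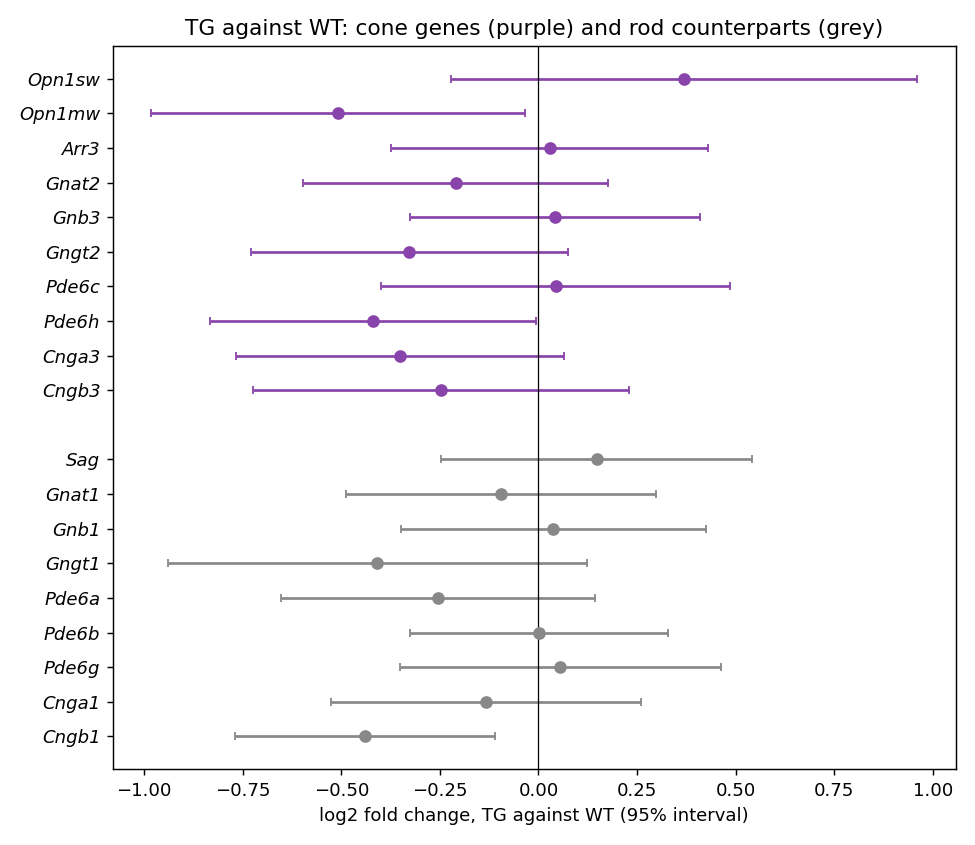
Log2 fold change of TG against WT with its 95% interval (horizontal axis) for the 10 cone genes (purple) and 9 rod counterparts (grey). Intervals are not adjusted for the number of features, and no gene passed the adjusted threshold.

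Within libraries, the log2 ratio of Gnat2 to Gnat1 was nearly the same in the group means, -6.12 ± 0.25 over the 4 WT and -6.24 ± 0.06 over the 4 TG libraries (SD). The difference of -0.12 did not pass the exact permutation test (p = 0.571, adjusted p = 0.571 over the 3 ratios). The other pairs were not tested. The log2 ratio of Pde6h to Pde6g stood at -2.81, -3.10, -2.83 and -2.99 in WT 3, 4, 5 and 7 and at -3.74, -2.79, -3.54 and -3.56 in TG 2, 5, 6 and 8. TG 2, 6 and 8 lay under all WT libraries there, and TG 5 lay above them. Ratios to the rod counterpart differed by no more than 0.48 on the log2 scale between the group means of any pair.

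**Figure D4:**
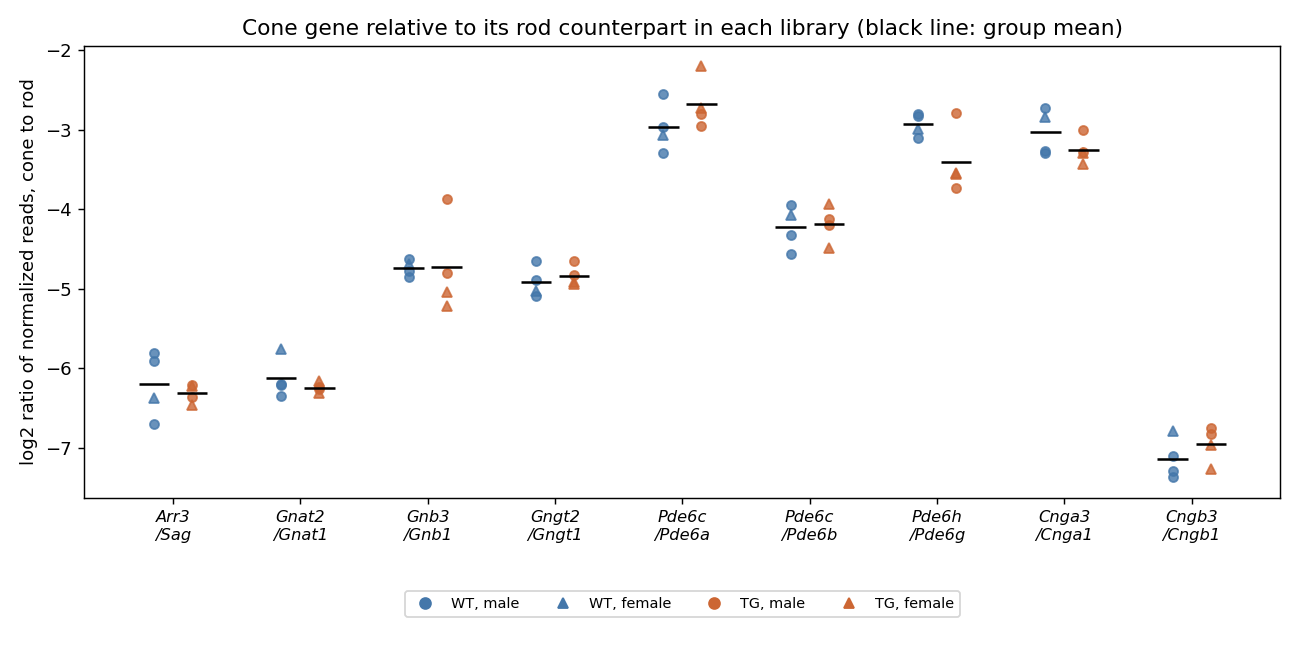
Log2 ratio of normalized reads of 8 cone genes to their rod counterparts (vertical axis; Pde6c to both Pde6a and Pde6b) in the 4 WT (blue) and 4 TG (orange) libraries, circles for males and triangles for females, with black lines at the group means. Groups overlap for every pair, and the Pde6h to Pde6g means differ most, by -0.48.

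Genes that act with the cascade in cones, in rods or in both were listed separately. Of 18 such genes, 15 lay lower and 3 higher in TG, 0 passed, and the median log2 fold change was -0.15. The 4 with the smallest p were Gucy2e and Gucy2f, the guanylate cyclases that restore cyclic GMP (-0.74 ± 0.33 and -0.58 ± 0.37, SE), Grk1, the kinase that phosphorylates active opsin (-0.45 ± 0.22), and Rgs9, which speeds transducin shutoff (-0.79 ± 0.42). Rgs9 had 2986, 5798, 1857 and 6779 normalized reads in WT 3, 4, 5 and 7, so WT alone spanned more than the distance between the group means.

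Of 10 other cone-enriched genes, 9 were tested, of which 5 lay lower and 4 higher with a median of -0.20, and 0 passed. Clca3a2 fell under the minimum mean of 10 and was not tested. The smallest p belonged to Otop3, a proton channel gene (-0.53 ± 0.24, SE), followed by Ccdc136 (0.38 ± 0.22), Tafa3 (-0.43 ± 0.30) and Mpped1 (1.11 ± 0.83, from only 18.4 ± 14.3 normalized reads in WT). Thrb, the thyroid hormone receptor gene that directs Opn1mw expression, averaged 123 ± 47.5 (SD) in the 4 WT libraries and 111 ± 66.2 in the 4 TG libraries. Rxrg, its partner in cones, had 359 ± 14.6 and 385 ± 57.2. Of 9 photoreceptor fate genes, 7 lay lower and 2 higher, 0 passed, and the median was -0.28, with Esrrb at -0.65 ± 0.28, Rorb at -0.32 ± 0.17, Crx at -0.30 ± 0.17 and Nrl at -0.28 ± 0.18 (SE).

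Markers of other cells varied between these libraries. In the same fit, 0 genes passed in the lists of bipolar (8 of 11 higher in TG, median 0.21), Mueller glia (6 of 10, 0.21), microglia (10 of 10, 0.42), pigment epithelium (7 of 10, 0.16), lens (8 of 8, 0.95), amacrine and ganglion (6 of 10, 0.05) and blood genes (2 of 5, -0.07). At an unadjusted p under 0.05 (limma) there were 4 of 10 microglia genes, beside 4.64% of all features. There were 1 of 11 bipolar, 1 of 10 Mueller glia, 1 of 10 amacrine and ganglion, and 0 pigment epithelium, lens or blood genes. WT and TG did not overlap for 1 Mueller glia gene, as for 2.53% of all features. Most pigment epithelium genes changed direction with the fit. With limma and edgeR, log2 fold changes were 0.04 and -0.78 for Rpe65, 0.16 and -0.64 for Lrat, and 0.24 and -0.70 for Rgr. They were 0.46 and -0.39 for Ttr, and Tyrp1 and Slc6a20a also turned negative with edgeR. Rlbp1 was higher in both (0.60 and 0.66), and Best1, Dct and Pmel lower in both. Rpe65 had 7153 normalized reads in WT 3, against 244 to 617 in other WT libraries. No list had a marker at 0 in all libraries. Among the genes listed as bipolar, not all of which need be made by bipolar cells alone, the smallest p belonged to Lrit3 (-0.68), Gpr179 (0.34), Pcp2 (0.30) and Bhlhe23 (0.37). The summed bipolar level ran from 48218 to 55753 in WT and from 53381 to 82436 in TG, and that of pigment epithelium from 12426 to 109225 and from 23960 to 65262. The part of these differences in the cone values was not tested. Rlbp1 was in both the pigment epithelium and the Mueller glia list. It held 8062 of the pigment epithelium sum of 12426 in WT 4, 11973 of 23960 in TG 5 and 24774 of 31740 in TG 8. The labelled tissue was borne out by its rod genes, which summed to between 2620611 and 4146687 normalized reads in every library.

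The genes whose pattern over the 8 libraries was most like the mean of the 10 members, each scaled to its own spread, were ranked among 12343 features by Pearson r, given as a description with no test. All points share their library's depth and cell make-up. The mean profile was highest in WT 7 (0.79), TG 6 (0.73) and WT 3 (0.43) and lowest in TG 8 (-0.79) and TG 2 (-0.51), in SD units. The closest were Haus2, a spindle gene (r = 0.96), Cfap36, a cilium gene (0.95), Eapp (0.94), Suv39h2, a histone methyltransferase gene (0.94), Tmem237, a gene of the ciliary transition zone (0.93), Ift74, a gene of intraflagellar transport (0.92), Fzd4 (0.91), Dnajc3 (0.91), Dbr1 (0.91) and Snhg17 (0.91). At the other end stood Edc4 (-0.95), Mrgpre (-0.92), Slc5a6 (-0.92), Fbxo8 (-0.91) and BC048403 (-0.91). Of the members, Cnga3 followed the mean profile most closely (0.90) and Gnb3 least (0.01), though each member is part of that mean. The 9 rod genes ranged from 0.42 for Pde6a, 0.44 for Sag and 0.50 for Gnb1 to 0.82 for Cngb1 and 0.83 for Gngt1.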

How the data were processed

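The 10 genes and all gene lists were chosen with earlier results of these data known. The deposited values are a signal, read counts that the authors divided by DESeq2 size factors. The submitters' processing notes name FastQC, Picard, SAMtools, STAR 2.4.0, DESeq2 and mm10 (GRCm38). Libraries were poly(A)-selected and strand-marking, per the labels' protocols. The sources used here do not state the counting tool, its strand setting or the annotation, so reads of overlapping or antisense genes could not be told apart.

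A symbol was matched to its row with the highest mean. To recover read counts, each library's values were divided by its smallest value above 0. Every value (100%) then lay within 0.01 of a whole read, giving 61535690 to 75866423 reads per library. Every pair of libraries differed by a chi-square of 37.9 or more per feature, so all 8 were counted as separate samples. All sample columns were mapped (0 left over).

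TG and WT were compared with limma 3.58.1 (R 4.3.3, trended prior variance) on log2(value + 1), over the 19798 features averaging 10 or more. Fold changes are on that scale, which understates low genes. P-values were adjusted by Benjamini-Hochberg over all features. Alternatives were TMM or upper-quartile scaling, pseudocounts of 0.5 and 5, all features or those averaging at least 50, a term for sex or for eye, males only, no variance trend, edgeR 4.0.16 and DESeq2 1.42.0 on recovered reads, and leaving out libraries. Of 3 ratios tested by exact permutation (SciPy 1.17.1), 1 is not reported here, nor are some listed genes. The procedure was tested on simulated data.

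The named genes are the members, their rod counterparts, up to 4 of each cone, photoreceptor and bipolar list by smallest p, and the 10 most and 5 least alike in pattern, among features averaging at least 50; other lists are given by counts. Thrb, Rxrg, Clca3a2 and the named pigment epithelium genes were chosen after their values were seen. Intervals are 95%.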

Additional observations from a re-analysis of the deposited data

Results flagged for a closer look

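In 44 groups of 4 libraries (19 genes and 3 ratios in WT and in TG), the gap between the highest or lowest library and its neighbour was compared with the group's whole range. The gap was unusually wide in 4 groups, where chance gives about 5% of groups. Gnat2 had 13288 normalized reads in WT 7, far above the other WT libraries. Cngb3 had 541 in the same library, against 331 to 360 in the other WT libraries. Cnga3 had 2613 in TG 6, against 1670 to 1740 in the other TG libraries. Rod arrestin, Sag, had 785561 in TG 6, against 564993 to 594730 in the other TG libraries. The effect of genotype did not pass a test of a difference between the sexes for any member (lowest adjusted p = 0.467, limma interaction term, with 1 female in WT), where 0.00505% of features passed.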

How the results depend on the processing

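In 210 refits (10 genes under 21 alternatives), 0 passed the threshold (lowest adjusted p = 0.676), and 199 kept their direction. Some of these could not change direction, because no filter, a minimum mean of 50 and no variance trend leave each fold change as it was. Pde6c turned negative with a sex term (-0.023) or an eye term (-0.079), without WT 3 and TG 6 together (-0.043), and without WT 4, WT 5 or TG 6, and ran from -0.14 to 0.16 without any 1 library. Arr3 turned negative with males only (-0.13) and without WT 5, WT 7 or TG 6 (-0.11 to 0.19 without any 1 library). Gnb3 turned negative without TG 5 (-0.14 to 0.14). The cause was not tested. The members' median stayed between -0.30 and -0.06 without any 1 library, and 6 to 8 members lay lower. The opsin ratio difference ran from -1.29 to -0.49 without any 1 library. The Gnat2 to Gnat1 difference ran from -0.19 to 0.0062, positive without WT 7, and was 0.0027 with males only. Leaving out WT 3 and TG 6 together was added for the ratios after the data were seen, and gave -0.93 for the opsins and -0.12 for Gnat2 to Gnat1. Over all features, 1 higher and 1 lower passed. DESeq2 called 9 higher and 7 lower, males only gave 3 lower, and 0 were higher with a pseudocount of 0.5, no filter, a minimum mean of 50, sex as a term or no variance trend. Without 1 library, 0 to 2 were higher and 1 to 2 lower. Scaling moved the median of all features by less than 0.1. No paired analysis was possible because the groups share only 1 replicate number.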

Other observations

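Genes that mark dorsal and ventral retina were looked up after the opsin values were seen, 6 dorsal and 5 ventral. Of the dorsal genes 3 lay higher and 3 lower in TG, with a median log2 fold change of -0.07, and of the ventral genes 3 and 2, with a median of 0.08. No dorsal or ventral gene passed (0 of 11, limma), and 0 had an unadjusted p under 0.05.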
